A study of Mus musculus with 12 samples.

Results

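Sterol and fatty acid synthesis was followed across 4 groups of B16 libraries through 33 genes, chosen by symbol from the 23336 symbols of the count table. These genes were chosen with earlier results of these data known, so their shares beside those of all genes are a description only. They comprise 16 enzymes of cholesterol synthesis, 6 genes of its regulation and transport, 8 enzymes of fatty acid synthesis and desaturation, and 3 genes of sterol efflux or oxidation. All 33 symbols were found in the table, and 31 had enough counts to be tested among 11561 genes.

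B16 is an established mouse melanoma line. Per the series' design text, cells had been transfected transiently with Cas9 and a guide RNA, either Adar sgRNA 1, which gave the Adar KO cells (called Adar-null here), or Non-targeting sgRNA 5, which gave the control cells, and were then subcloned. Adar encodes an enzyme that edits adenosines in double-stranded RNA. Both genotypes received interferon-beta (IFNb), a type I interferon, at 1000 U per mL, or vehicle, which was PBS with 0.1% BSA, for 36 h. The 4 groups of 3 libraries are therefore Adar-null with IFNb, Adar-null with vehicle, control with IFNb and control with vehicle. All cells had passed through transfection with Cas9 and subcloning, and each genotype rests on 1 guide, so that genotype and subclone cannot be told apart. Separate cultures are not named in the labels for the libraries within a group, and p-values therefore cover a spread that may be technical only. An arm with interferon-gamma is not analysed here.

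Cells make cholesterol from acetyl-CoA through mevalonate, squalene and lanosterol. Transcription of these enzymes is driven by the SREBP factors, encoded by Srebf1 and Srebf2, which stay in the endoplasmic reticulum while sterols are plentiful, held there through SCAP by the INSIG proteins. When sterols fall, SCAP escorts SREBP to the Golgi, where it is cleaved, and its released part enters the nucleus and acts at sterol response elements. SREBP also drives fatty acid synthesis and desaturation. Excess sterol acts the other way: oxysterols activate the LXR receptors, which raise the sterol exporters Abca1 and Abcg1, and Ch25h, an interferon-induced gene in mouse macrophages, makes an oxysterol that holds back SREBP.

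Total counts ranged from 5375649 to 7153480 per library, and the ribosomal RNA precursor Rn45s held 25.8% to 28.5% of them in Adar-null IFNb libraries, 21.1% to 22.9% in Adar-null vehicle, 24.9% to 25.4% in control IFNb and 21.5% to 22.5% in control vehicle libraries. The targeted gene, Adar, had 408 ± 21.2 CPM in Adar-null IFNb libraries, 59.5 ± 5.26 CPM in Adar-null vehicle, 384 ± 7.47 CPM in control IFNb and 72.2 ± 2.05 CPM in control vehicle libraries. Under IFNb its libraries overlapped between the genotypes (adjusted p = 0.0817), and under vehicle all Adar-null libraries lay below the control ones, with a log2 difference of -0.28 ± 0.064 (adjusted p = 0.0017), so the RNA gave no uniform check of the labels. Its exons also overlap those of Chrnb2 on the opposite strand. CPM are counts scaled to a common library size by TMM, and values after ± are standard deviations over 3 libraries for CPM and standard errors for log2 fold changes. All 9 melanocyte markers found in the table had counts, with a summed level of 15348 to 16382 CPM in Adar-null IFNb libraries and of 19023 to 20404 CPM in the other 9. In Adar-null cells, IFNb lowered 7 of these 9 markers and raised 1, where 35.7% of all tested genes fell and 36.6% rose. In control cells it lowered 3 and raised 2, where 26.5% of all genes fell and 26.5% rose. The part of these shifts in the results below was not tested. Of 11 leukocyte markers 5 were at 0 in every library, and the summed level of the 11 was 1.44 to 4.96 CPM. The 6 adipocyte and hepatocyte markers summed to 0.379 to 1.41 CPM, with 2 at 0, and the 9 fibroblast, endothelial and epithelial markers to 9.44 to 25.2 CPM, with 3 at 0.

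The promoter windows of 3 genes are shown because they hold letters of the classical sterol response element upstream of a RefSeq start site. SREBP acts through this element. Windows from 250 bases before to 50 bases after a start site were available from RefSeq (GRCm38.p6) for 25 of the 33 genes. The element was searched on both strands as CACNCCAC, which occurred in 3 of the 33 windows of these 25 genes (9.09%) and in 6.24% of all 32851 windows of the same length. This pattern was 1 of 4 tried and was kept after its matches had been seen. Of the others, TCACNCCAC was found for Hmgcs1 alone (1.24% of all windows), TCACNCCA for Hmgcs1 and Srebf2 (4.36%), and CACNCNAC for Acat2, Hmgcs1, Insig1, Nsdhl and Scap (12.1%). The matches are a description of letters only. Capitals mark CACNCCAC or its reverse complement and, in Hmgcs1, the reverse complement of the CCAAT box. The sequences run 5′ to 3′ on the gene's strand.
Hmgcs1: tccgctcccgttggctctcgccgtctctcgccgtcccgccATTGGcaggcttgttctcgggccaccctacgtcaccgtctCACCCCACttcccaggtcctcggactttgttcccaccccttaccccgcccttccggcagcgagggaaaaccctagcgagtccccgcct
Acat2: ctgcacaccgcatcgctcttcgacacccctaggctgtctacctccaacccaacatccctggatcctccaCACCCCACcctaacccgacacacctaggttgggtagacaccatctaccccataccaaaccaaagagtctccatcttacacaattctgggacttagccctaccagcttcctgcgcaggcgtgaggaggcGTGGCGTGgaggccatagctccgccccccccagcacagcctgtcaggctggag
Insig1: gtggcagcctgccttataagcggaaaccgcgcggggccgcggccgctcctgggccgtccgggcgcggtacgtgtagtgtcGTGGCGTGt
The Hmgcs1 stretch is chr13:119690135-119690302 on the plus strand, with the element 136 bases before the start site. For Acat2 it is chr17:12960726-12960975 on the minus strand, with matches 181 and 53 bases before the start. The Insig1 stretch is chr5:28071323-28071411 on the plus strand, and its match lies 9 bases before the RefSeq start. GENCODE M21 starts Insig1 at chr5:28071363, so by that annotation the match lies inside the gene. CCAAT was present in 19 of the 33 windows (57.6%, against 37.4% of all windows). The GC box GGGCGG was present in 24 (72.7%, against 35.7%) and the E-box CACGTG in 6 (18.2%, against 7.15%). By gene, these were 18, 20 and 5 of the 25 genes. Windows of the same gene can overlap, as those of Scap did, so the same letters can be counted again. The interferon-stimulated response element was present in 1 window, that of Ebp (3.03%, against 3.44%). None of these searched patterns overlapped a CACNCCAC match in the printed stretches.

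With the same dose of IFNb, most of these genes fell in Adar-null cells and most rose in control cells. In Adar-null cells, 25 of the 31 tested genes fell with IFNb and 2 rose, where 35.7% of all tested genes fell and 36.6% rose (edgeR, adjusted p under 0.05). In control cells, 23 rose and 3 fell, where 26.5% of all genes rose and 26.5% fell. Scaling by library size alone shifted this comparison, with 19 of the genes rising and 5 falling, beside 2469 and 3796 of all genes against 3067 and 3066 with TMM. The median log2 fold change of the 31 genes was -0.84 in Adar-null and 0.42 in control cells, beside 0.012 and -0.0049 for all genes. In 17 genes the fall in Adar-null and the rise in control cells were both called, which held for 6.44% of all genes. Hsd17b7 and Abca1 rose in both genotypes (14.9% of all genes did), and Srebf1, Scd2 and Fads1 fell in both (14.5%). In 25 genes all Adar-null IFNb libraries lay below the other 9 (26.4% of all genes), and in 23 genes all control IFNb libraries lay above the other 9 (12.2% of all genes). For 18 genes, all Adar-null IFNb libraries lay below and all control IFNb libraries above every other library, as for 5.32% of all genes. Most of the group means followed 1 order: in 21 of 31 genes control IFNb was highest, then control vehicle, Adar-null vehicle and, lowest, Adar-null IFNb. Since the RNA comes from whole populations, fewer cells with a transcript and less of it per cell cannot be told apart.

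**Figure D1:**
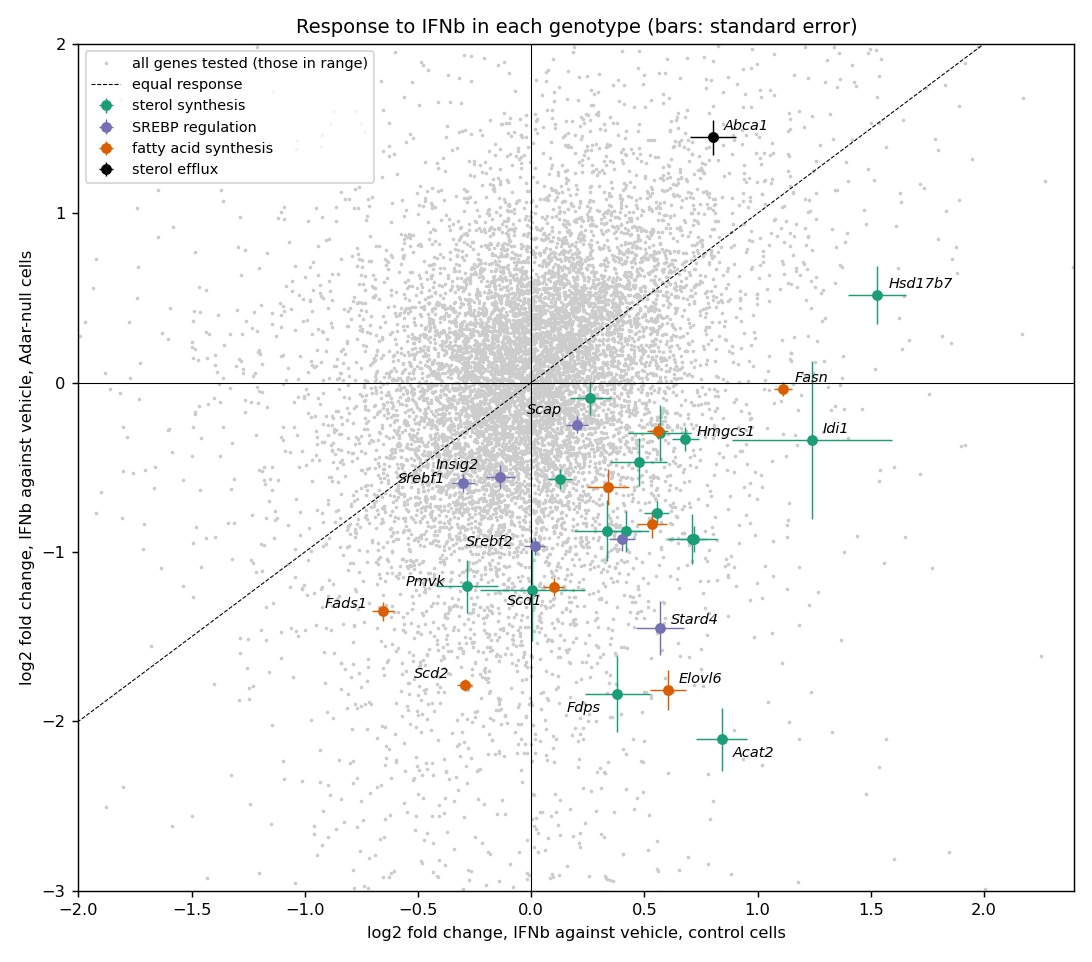
Log2 fold change with IFNb against vehicle in Adar-null cells (vertical) and in control cells (horizontal), with bars for standard errors; grey points are all tested genes within the plotted range, and the dashed line marks equal responses. Most coloured points lie in the lower right part, lower in Adar-null and higher in control cells, where 17 of the 31 genes were called in both directions, and only Abca1 lies above the dashed line.

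Among the enzymes of cholesterol synthesis, 12 of 16 fell with IFNb in Adar-null cells and 1 rose, whereas 14 rose and none fell in control cells. Of all tested genes, 35.7% fell and 36.6% rose in Adar-null cells, and 26.5% fell and 26.5% rose in control cells. The summed level of the 16 enzymes was 317 ± 9.79 CPM in Adar-null IFNb libraries, 502 ± 5.87 CPM in Adar-null vehicle, 809 ± 3.28 CPM in control IFNb and 568 ± 4.46 CPM in control vehicle libraries. The summed levels of the groups did not overlap.

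Acat2, the cytosolic thiolase that joins acetyl-CoA units, had 3.03, 4.36 and 5.22 CPM in Adar-null IFNb libraries, 18.5, 19.1 and 17.6 in Adar-null vehicle, 30.6, 33.2 and 34.3 in control IFNb and 18.98, 17.5 and 18.4 in control vehicle libraries. The vehicle libraries of both genotypes overlapped, and the IFNb libraries lay on either side of them. Its log2 fold change with IFNb was -2.11 ± 0.19 in Adar-null cells (adjusted p = 3.35e-22) and 0.84 ± 0.11 in control cells (adjusted p = 9.41e-11). Of its 37-base stretches 42% also occur in Acat3, so its counts are uncertain, as reads may be divided between these genes.

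Hmgcs1, which makes HMG-CoA, had 49.8, 49.2 and 51.9 CPM in Adar-null IFNb libraries, 66.1, 59.5 and 65.2 in Adar-null vehicle, 117, 113 and 123 in control IFNb and 73.98, 73.2 and 72.4 in control vehicle libraries, with no overlap between any of the groups. It fell with IFNb in Adar-null cells by 0.33 on the log2 scale (SE 0.071, adjusted p = 1.62e-05) and rose in control cells by 0.68 ± 0.061 (adjusted p = 6.69e-19). The enzymes that turn mevalonate into isoprene units were low and less uniform. Mvk, mevalonate kinase, averaged 11.4 ± 2.09 CPM in Adar-null IFNb, 15.7 ± 1.36 in Adar-null vehicle, 21.9 ± 0.462 in control IFNb and 15.8 ± 1.15 in control vehicle libraries, falling in Adar-null and rising in control cells. Pmvk, phosphomevalonate kinase, fell in Adar-null cells (-1.20 ± 0.16), while in control cells its log2 fold change was -0.28 ± 0.14 and missed the threshold (adjusted p = 0.0726). It was called lower there with library size alone, with upper-quartile scaling and without control vehicle replicate 1 (adjusted p = 0.0197 to 0.0467). For Mvd, the decarboxylase that follows, the rise in control cells was called (0.57 ± 0.14), and the value in Adar-null cells was -0.30 ± 0.17 (adjusted p = 0.0952). This value was called lower with library size alone and without Adar-null IFNb replicate 3 (adjusted p = 0.0299 and 0.0123). Idi1, the isomerase of the isoprene units, had only 7, 9 and 4 counts in Adar-null IFNb libraries, 9, 10 and 7 in Adar-null vehicle, 25, 30 and 21 in control IFNb and 14, 8 and 7 in control vehicle libraries. It rose in control cells by 1.24 ± 0.35 on the log2 scale (adjusted p = 0.000962), while the value in Adar-null cells, -0.34 ± 0.47, was smaller than its standard error.

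Both genes of the steps to squalene fell in Adar-null cells. Fdps, farnesyl diphosphate synthase, had 2.46, 4.06 and 3.48 CPM in Adar-null IFNb libraries, 12.3, 13.1 and 10.9 in Adar-null vehicle, 18.5, 16.3 and 18.9 in control IFNb and 9.84, 15.2 and 16.1 in control vehicle libraries. All Adar-null IFNb libraries lay below the rest, and its log2 fold change there was -1.84 ± 0.22 (adjusted p = 2.8e-14). Fdft1, squalene synthase, averaged 6.23 ± 1.64 CPM in Adar-null IFNb, 11.5 ± 0.738 in Adar-null vehicle, 15.1 ± 2.01 in control IFNb and 11.9 ± 1.23 in control vehicle libraries. Its log2 fold change with IFNb in Adar-null cells was -0.87 ± 0.18 (adjusted p = 6.51e-06). The rises of both genes in control cells were small, 0.38 ± 0.14 for Fdps (adjusted p = 0.0171) and 0.34 ± 0.15 for Fdft1 (adjusted p = 0.047). The Fdps call was lost in 4 of the alternatives, among them without control vehicle replicate 1 (0.19, adjusted p = 0.289) and without control IFNb replicate 3 (0.34, adjusted p = 0.072), and that of Fdft1 in 8 of the alternatives (adjusted p up to 0.283). Between 26.5% and 29.9% of the 37-base stretches of Idi1, Fdps and Fdft1 occur in other annotated genes, among them Ctsb on the opposite strand of Fdft1, so these counts are uncertain as well.

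Sqle, squalene epoxidase and a rate-limiting step, had 68.4, 68.7 and 71.98 CPM in Adar-null IFNb libraries, 97.3, 103 and 110.0 in Adar-null vehicle, 137, 138 and 129 in control IFNb and 127, 121 and 120.5 in control vehicle libraries. Its log2 fold change with IFNb was -0.57 ± 0.0603 in Adar-null cells (adjusted p = 2e-15), and its rise in control cells was 0.13 ± 0.053 (adjusted p = 0.034), a call lost in 8 of the alternatives, with adjusted p up to 0.426 with library size alone. Lss, which closes the lanosterol rings, differed little within Adar-null cells, at 27.7 ± 1.59 CPM with IFNb and 29.8 ± 3.66 CPM with vehicle, and rose in control cells, at 41.7 ± 1.52 CPM with IFNb and 34.8 ± 1.004 CPM with vehicle. With library size alone that rise was not called (0.19, adjusted p = 0.0752).

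Of the enzymes after lanosterol, Cyp51, Nsdhl, Ebp and Dhcr7 fell in Adar-null and rose in control cells. Cyp51, lanosterol demethylase, had 51.9, 49.6 and 57.1 CPM in Adar-null IFNb libraries, 89.9, 93.2 and 86.3 in Adar-null vehicle, 150.1, 139 and 151 in control IFNb and 99.5, 100.3 and 99.5 in control vehicle libraries. No groups overlapped, and its log2 fold change with IFNb was -0.77 ± 0.066 in Adar-null cells (adjusted p = 1.73e-20) and 0.56 ± 0.055 in control cells (adjusted p = 2.1e-16). Dhcr7, the reductase that yields cholesterol, had 34.5, 34.7 and 35.3 CPM in Adar-null IFNb libraries, 67.3, 69.03 and 61.3 in Adar-null vehicle, 122, 128 and 128 in control IFNb and 79.6, 74.05 and 77.1 in control vehicle libraries. The lowest control IFNb library was above every other library, and the responses were -0.92 ± 0.077 in Adar-null and 0.72 ± 0.0598 in control cells (adjusted p = 1.61e-21 and 8.22e-21).

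Nsdhl, a sterol dehydrogenase, averaged 10.1 ± 2.203 CPM in Adar-null IFNb, 18.8 ± 2.04 in Adar-null vehicle, 37.1 ± 1.12 in control IFNb and 22.5 ± 3.81 in control vehicle libraries. Ebp, the sterol isomerase, averaged 15.6 ± 2.25 CPM in Adar-null IFNb, 28.7 ± 2.69 in Adar-null vehicle, 38.3 ± 4.42 in control IFNb and 28.5 ± 4.05 in control vehicle libraries. Tm7sf2, a sterol reductase with 6 to 37 counts per library, fell in Adar-null cells (-1.22 ± 0.30, adjusted p = 8.78e-05), and its value in control cells was 0.0057 ± 0.23. Hsd17b7, the ketone reductase that acts with Nsdhl, departed from the other enzymes. It had 12.3, 10.5 and 9.81 CPM in Adar-null IFNb libraries, 5.996, 8.56 and 7.84 in Adar-null vehicle, 36.9, 37.9 and 33.9 in control IFNb and 9.84, 14.3 and 13.4 in control vehicle libraries. Adar-null and control cells both raised it with IFNb, by 0.52 ± 0.17 in Adar-null cells (adjusted p = 0.0046) and by 1.53 ± 0.13 in control cells (adjusted p = 6.52e-22). The rise in Adar-null cells was not called without Adar-null vehicle replicate 1 (0.39, adjusted p = 0.0546).

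**Figure D2:**
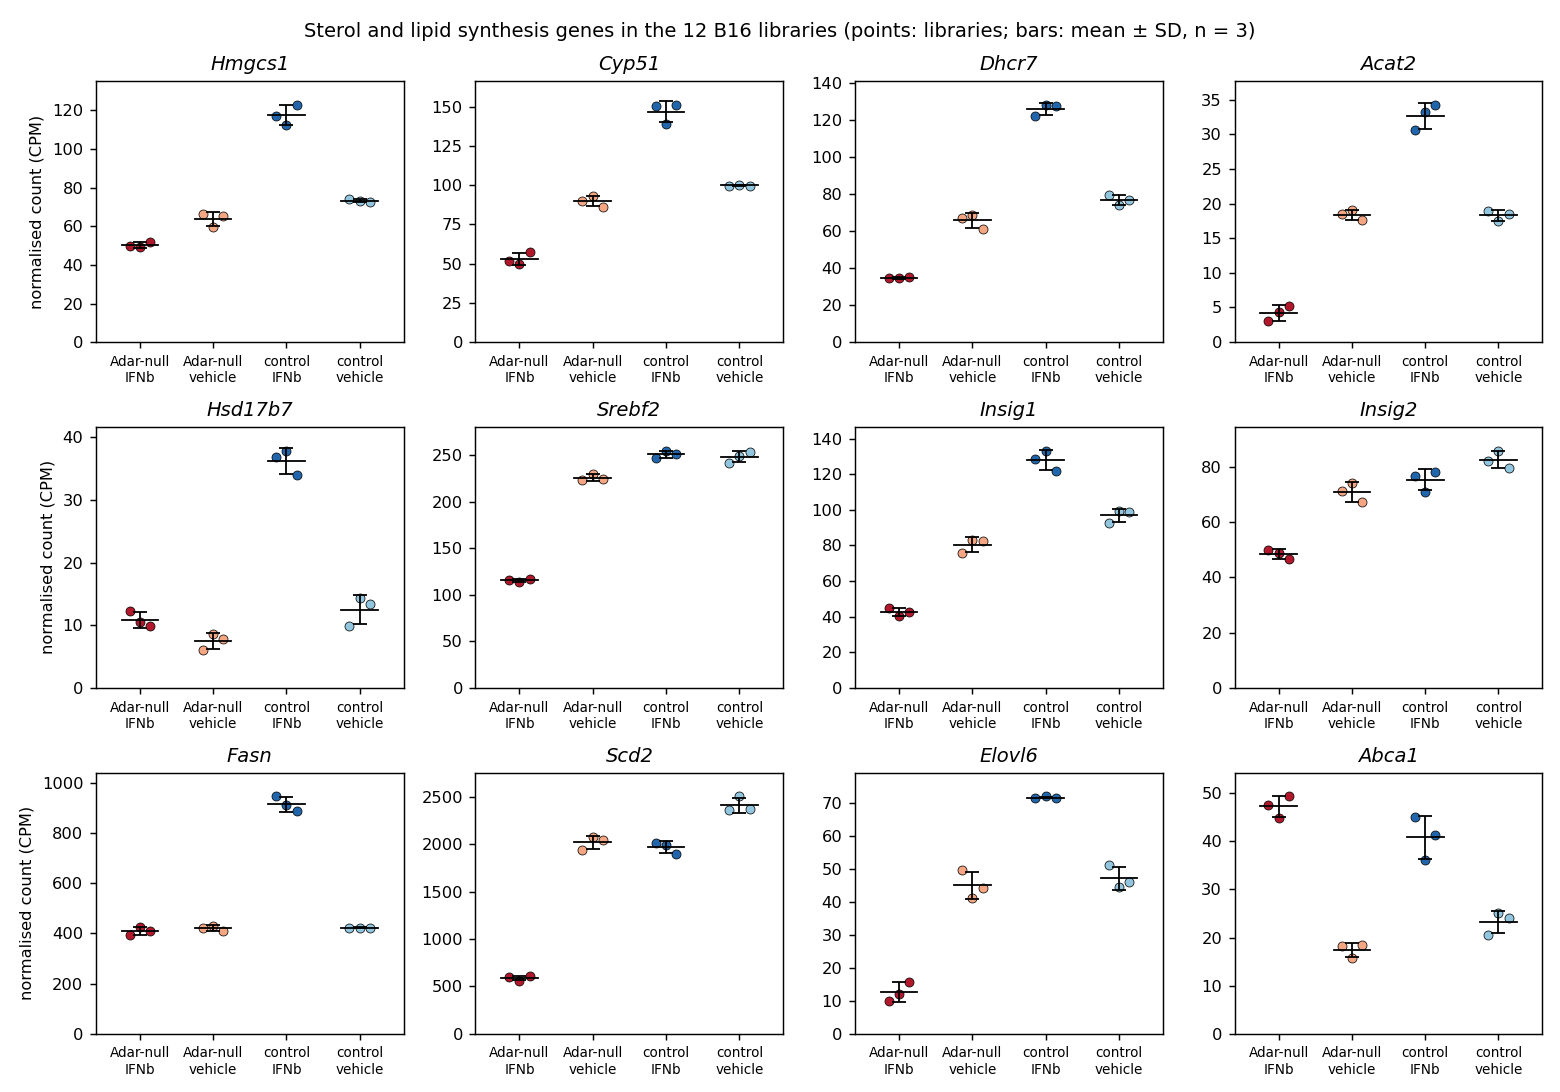
Normalised counts (CPM, vertical axes from 0) of 12 of the genes in each library by group, with lines for the mean and bars for the standard deviation of 3 libraries. Control IFNb libraries lie highest for Hmgcs1, Cyp51, Dhcr7, Acat2, Hsd17b7, Insig1, Fasn and Elovl6, and Adar-null IFNb libraries lie lowest for all plotted genes except Hsd17b7, Fasn and Abca1.

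All 6 genes of SREBP regulation and sterol transport fell with IFNb in Adar-null cells, where 35.7% of all genes fell. In control cells 3 rose and 1 fell, where 26.5% of all genes rose and 26.5% fell. Srebf2, the SREBP gene that chiefly drives cholesterol synthesis, had 116, 114 and 117 CPM in Adar-null IFNb libraries, 224, 230.3 and 224 in Adar-null vehicle, 247, 255 and 251 in control IFNb and 242, 249 and 254 in control vehicle libraries. The Adar-null IFNb libraries lay far below the rest, and the control libraries with and without IFNb overlapped. The log2 fold change of Srebf2 was -0.97 ± 0.0501 in Adar-null cells (adjusted p = 1.7e-36) and 0.016 ± 0.046 in control cells (adjusted p = 0.793). In control cells 14 of the 16 enzymes of cholesterol synthesis were called higher, and Srebf2 RNA was not. Among those enzymes, the calls of Fdft1, Sqle, Fdps and Lss were lost in some alternatives. RNA counts do not show the cleavage of SREBP, and a link between Srebf2 RNA and the enzymes was not tested. Srebf1, the SREBP gene tied more to fatty acid synthesis, averaged 102 ± 6.19 CPM in Adar-null IFNb, 154 ± 9.35 in Adar-null vehicle, 129.9 ± 2.25 in control IFNb and 160.0 ± 2.4999 in control vehicle libraries. It fell in both genotypes, with log2 fold changes of -0.59 ± 0.052 in Adar-null and -0.30 ± 0.04999 in control cells (adjusted p = 1.01e-19 and 1.37e-07).

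Insig1, itself an SREBP target and a brake on SREBP, had 45.1, 40.1 and 42.6 CPM in Adar-null IFNb libraries, 75.7, 83.2 and 82.4 in Adar-null vehicle, 128, 133 and 122 in control IFNb and 92.8, 99.1 and 98.8 in control vehicle libraries. No groups overlapped, and Insig1 moved as the enzymes did, with -0.92 ± 0.071 in Adar-null and 0.40 ± 0.057 in control cells (adjusted p = 1.22e-23 and 1.12e-09). Insig2, its relative, averaged 48.4 ± 1.76 CPM in Adar-null IFNb, 70.8 ± 3.58 in Adar-null vehicle, 75.3 ± 3.81 in control IFNb and 82.5 ± 3.08 in control vehicle libraries. Its fall in Adar-null cells was called (-0.55 ± 0.071), and the value in control cells, -0.14 ± 0.064, was not (adjusted p = 0.0669), except with library size alone and with upper-quartile scaling (adjusted p = 0.00413 and 0.0232). Scap, the SREBP escort, changed least of the 6 in Adar-null cells, -0.25 ± 0.0503, and rose by 0.20 ± 0.049 in control cells (adjusted p = 6.61e-06 and 0.000186). Stard4, a carrier of cholesterol between membranes, had 9.28, 6.31 and 5.85 CPM in Adar-null IFNb libraries, 18.8, 20.2 and 18.4 in Adar-null vehicle, 33.6, 34.2 and 34.6 in control IFNb and 20.4, 23.3 and 25.5 in control vehicle libraries. Its log2 fold change of -1.45 ± 0.16 in Adar-null cells was the steepest of the 6, beside a rise of 0.57 ± 0.11 in control cells.

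**Figure D3:**
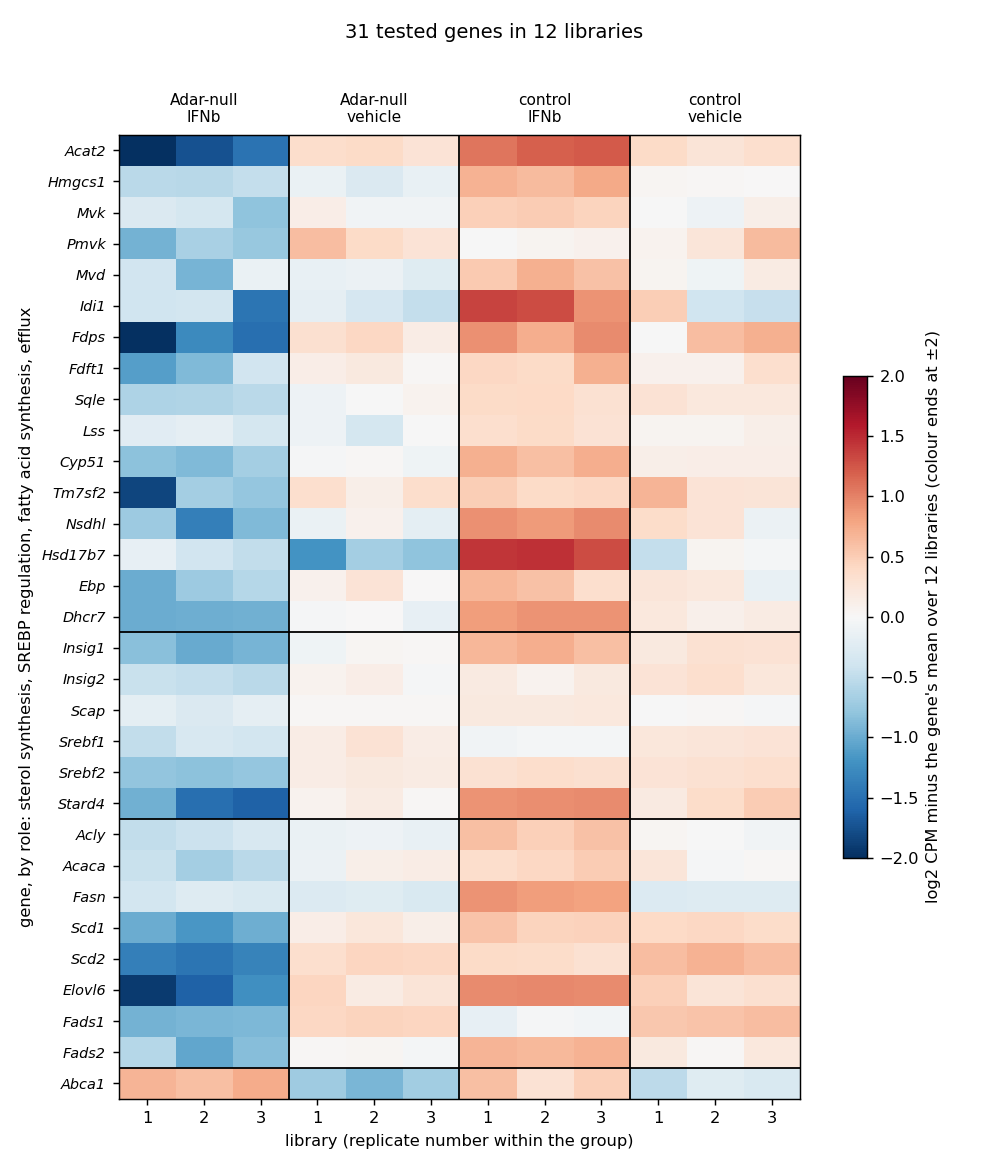
Level of the 31 tested genes in each of the 12 libraries, as log2 CPM minus the gene's mean over all libraries (colour, ending at ±2), with genes ordered by role and libraries by group. The Adar-null IFNb columns are blue for most genes and the control IFNb columns red, while Abca1 is red in both.

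Of the 8 fatty acid enzymes, 7 fell with IFNb in Adar-null cells and none rose, where 35.7% of all genes fell and 36.6% rose. In control cells 5 rose and 2 fell, where 26.5% of all genes rose and 26.5% fell. Acly, which makes cytosolic acetyl-CoA from citrate, averaged 174 ± 11.2 CPM in Adar-null IFNb, 213 ± 4.08 in Adar-null vehicle, 339 ± 15.9 in control IFNb and 230.2 ± 9.33 in control vehicle libraries. Acaca, acetyl-CoA carboxylase, averaged 21.7 ± 1.73 CPM in Adar-null IFNb, 32.98 ± 3.36 in Adar-null vehicle, 42.5 ± 2.29 in control IFNb and 33.7 ± 3.43 in control vehicle libraries. Both fell in Adar-null and rose in control cells, with 32.4% of the 37-base stretches of Acaca shared with other genes, mostly Gm5182. Fasn, fatty acid synthase, had 393, 426 and 411 CPM in Adar-null IFNb libraries, 421, 432 and 410.0 in Adar-null vehicle, 947, 912 and 887 in control IFNb and 422, 424 and 423 in control vehicle libraries. Its level was thus raised in control IFNb libraries alone, by 1.11 ± 0.039 on the log2 scale (adjusted p = 6.34e-51), against -0.038 ± 0.0403 in Adar-null cells (adjusted p = 0.393, and 0.00292 with library size alone).

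Elovl6, which lengthens saturated fatty acids, had 9.85, 12.03 and 15.8 CPM in Adar-null IFNb libraries, 49.5, 41.3 and 44.03 in Adar-null vehicle, 71.4, 71.9 and 71.4 in control IFNb and 51.1, 44.4 and 45.9 in control vehicle libraries. The vehicle libraries of both genotypes overlapped, and with IFNb the gene fell in Adar-null cells (-1.82 ± 0.12) and rose in control cells (0.60 ± 0.078), at adjusted p = 1.1e-30 and 3.05e-11. The stearoyl-CoA desaturases Scd1 and Scd2 make monounsaturated fatty acids and are neighbours on chromosome 19 (GRCm38), at chr19:44394455-44407879 and chr19:44293674-44306864. Scd2 was the most abundant of the 33 genes per kilobase of exon in every group, at 107.6 ± 4.52 CPM per kb in Adar-null IFNb, 370.6 ± 12.8 in Adar-null vehicle, 360.5 ± 11.5 in control IFNb and 442.0 ± 14.9 in control vehicle libraries. In plain CPM it had 595, 561 and 608 in Adar-null IFNb libraries, 1946, 2081 and 2047 in Adar-null vehicle, 2020.2, 1989.6 and 1899 in control IFNb and 2363, 2509 and 2374 in control vehicle libraries. It fell in both genotypes, with log2 fold changes of -1.78 ± 0.035 in Adar-null and -0.29 ± 0.034 in control cells (adjusted p = 1.32e-76 and 6.62e-13). Scd1 averaged 90.5 ± 6.304 CPM in Adar-null IFNb, 208 ± 8.63 in Adar-null vehicle, 263 ± 13.2 in control IFNb and 246 ± 3.79 in control vehicle libraries. It fell in Adar-null cells (-1.21 ± 0.054), and its value in control cells was 0.10 ± 0.048 (adjusted p = 0.0697, but 0.0329 to 0.0497 in 4 of the alternatives, the lowest without control IFNb replicate 2).

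The desaturases of polyunsaturated fatty acids, also on chromosome 19, parted in control cells. Fads1 had 63.3, 64.3 and 65.3 CPM in Adar-null IFNb libraries, 162, 166 and 164 in Adar-null vehicle, 109, 119 and 117 in control IFNb and 176, 181 and 187 in control vehicle libraries, falling in both genotypes (-1.35 ± 0.056 and -0.66 ± 0.049 for Adar-null and control cells). Fads2 had 42.99, 31.1 and 35.4 CPM in Adar-null IFNb libraries, 65.1, 65.6 and 62.6 in Adar-null vehicle, 103, 99.97 and 104 in control IFNb and 73.1, 65.1 and 74.04 in control vehicle libraries. It fell in Adar-null cells (-0.84 ± 0.0805) but rose in control cells (0.53 ± 0.066), with adjusted p = 1.1e-17 and 5.5e-12. Whether Fads1 and Fads2 differ in their control response was not tested.

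Of the 16 enzymes of cholesterol synthesis, 12 fell and 1 rose with IFNb in Adar-null cells, where 35.7% and 36.6% of all genes did. In control cells 14 rose and none fell, where 26.5% and 26.5% of all genes did. The efflux gene Abca1, an exporter of cholesterol and target of LXR, rose with IFNb in both genotypes. It had 47.5, 44.9 and 49.4 CPM in Adar-null IFNb libraries, 18.2, 15.7 and 18.4 in Adar-null vehicle, 45.04, 36.2 and 41.2 in control IFNb and 20.6, 25.1 and 24.02 in control vehicle libraries. Every IFNb library was above every vehicle library, and Abca1 rose by 1.45 ± 0.11 in Adar-null and by 0.80 ± 0.10 in control cells (adjusted p = 5.99e-26 and 8.11e-12). The related exporter Abcg1 had 1 count in each Adar-null IFNb library and 0 counts in the other 9. Ch25h, which makes the oxysterol that holds back SREBP, had 0 counts in all 12 libraries. A total of 3 counts over a group corresponds to 0.157 to 0.173 CPM, so levels of Ch25h below this were not detectable at this depth, in IFNb libraries of either genotype as with vehicle. Neither gene was tested, and floors cover counting error only.

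The responses of the genotypes differed in all 31 tested genes. In the interaction, which subtracts the control response from the Adar-null response, 30 were lower and 1 higher, where 30.7% of all genes were lower and 28.6% higher, and the median log2 difference was -1.15, beside 0.0091 for all genes. It was largest for Acat2 (-2.95 ± 0.22), Elovl6 (-2.42 ± 0.14), Fdps (-2.22 ± 0.26) and Stard4 (-2.02 ± 0.19), and smallest for Srebf1 (-0.29 ± 0.072, adjusted p = 0.000272) and Lss (-0.35 ± 0.13, adjusted p = 0.0178). The Lss call was lost with DESeq2 (adjusted p = 0.0542) and without Adar-null vehicle replicate 3 (adjusted p = 0.082), and that of Idi1 without Adar-null IFNb replicate 3 (adjusted p = 0.0532). The single gene with a higher value was Abca1 (0.64 ± 0.15, adjusted p = 7.25e-05). Its level was lower in Adar-null than in control cells under vehicle (-0.43 ± 0.12), and under IFNb the libraries overlapped (0.22 ± 0.086).

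**Figure D4:**
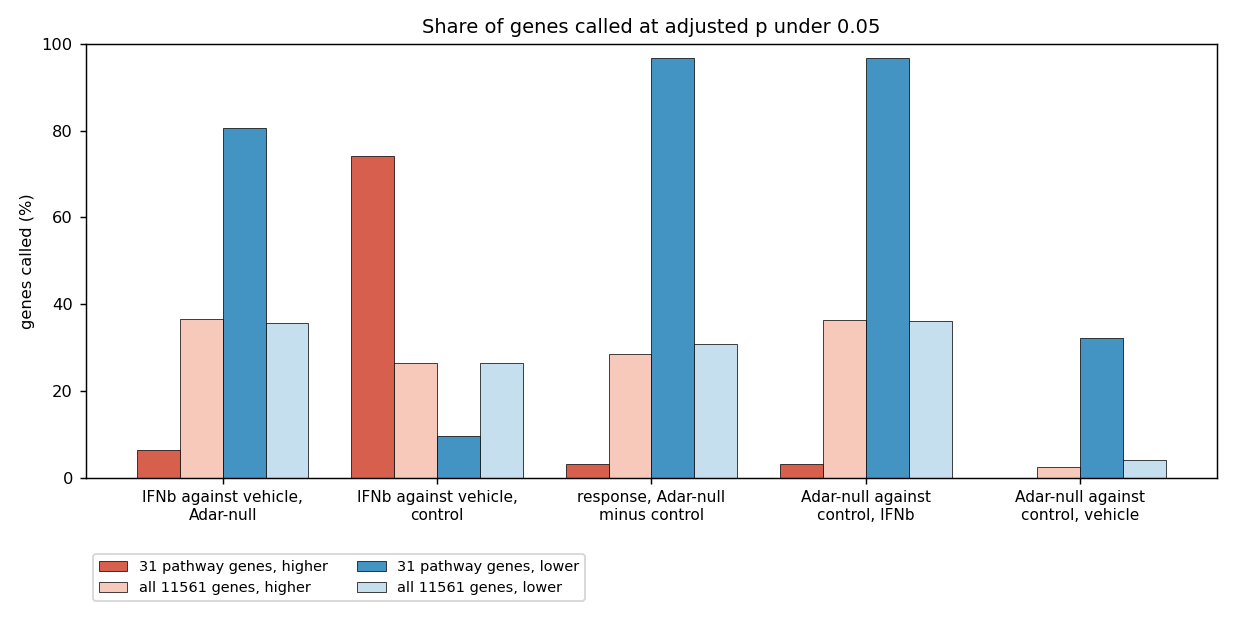
Share of genes called higher (red) or lower (blue) at adjusted p under 0.05 in each comparison, for the 31 pathway genes (dark) and all 11561 tested genes (pale). With IFNb, 80.6% of the pathway genes were lower in Adar-null cells and 74.2% higher in control cells, whereas the pale bars of all genes are near equal in both directions.

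Set against each other under IFNb, Adar-null libraries were lower than control libraries in 30 of 31 genes and higher in 1, where 36.2% of all genes were lower and 36.4% higher. The libraries of both genotypes did not overlap in the 30 genes, and Adar-null libraries were likewise all below control libraries in 37% of all genes. Log2 differences ranged from -2.93 ± 0.18 for Acat2 to -0.34 ± 0.053 for Srebf1, with a median of -1.26 over the 31 genes. Elovl6 (-2.49 ± 0.11), Fdps (-2.39 ± 0.22), Stard4 (-2.28 ± 0.15) and Nsdhl (-1.89 ± 0.14) followed Acat2. Abca1 was slightly higher in Adar-null cells (0.22 ± 0.086, adjusted p = 0.0182), with overlapping libraries, and that call was lost with DESeq2 (adjusted p = 0.0619), without Adar-null IFNb replicate 3 (0.109) and without control IFNb replicate 2 (0.273). This comparison and the responses share libraries, so they are not independent of each other.

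With vehicle alone the genotypes were close, yet 10 of the 31 genes were lower in Adar-null cells and none higher, where 4.05% of all genes were lower and 2.47% higher. The median log2 difference was -0.16, beside -0.0020 for all genes. The 10 genes were Hmgcs1, Sqle, Hsd17b7, Dhcr7, Insig1, Insig2, Scd1, Scd2, Fads1 and Abca1. Hsd17b7 differed most (-0.73 ± 0.17, adjusted p = 0.0014), and Scd2, with the highest counts, had -0.25 ± 0.034 (adjusted p = 9.62e-09). Abca1 was at -0.43 ± 0.12 (adjusted p = 0.0137), Scd1 at -0.24 ± 0.048 (adjusted p = 0.000299) and Insig1 at -0.27 ± 0.061 (adjusted p = 0.00166). With DESeq2, 5 of the 31 were called. Without Adar-null vehicle replicate 1 the count was 6, and without control vehicle replicate 2 it was 5. The calls of Sqle, Insig1, Scd1 and Scd2 held under every alternative run, and each of the other 6 was lost under at least 1.

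**Figure D5:**
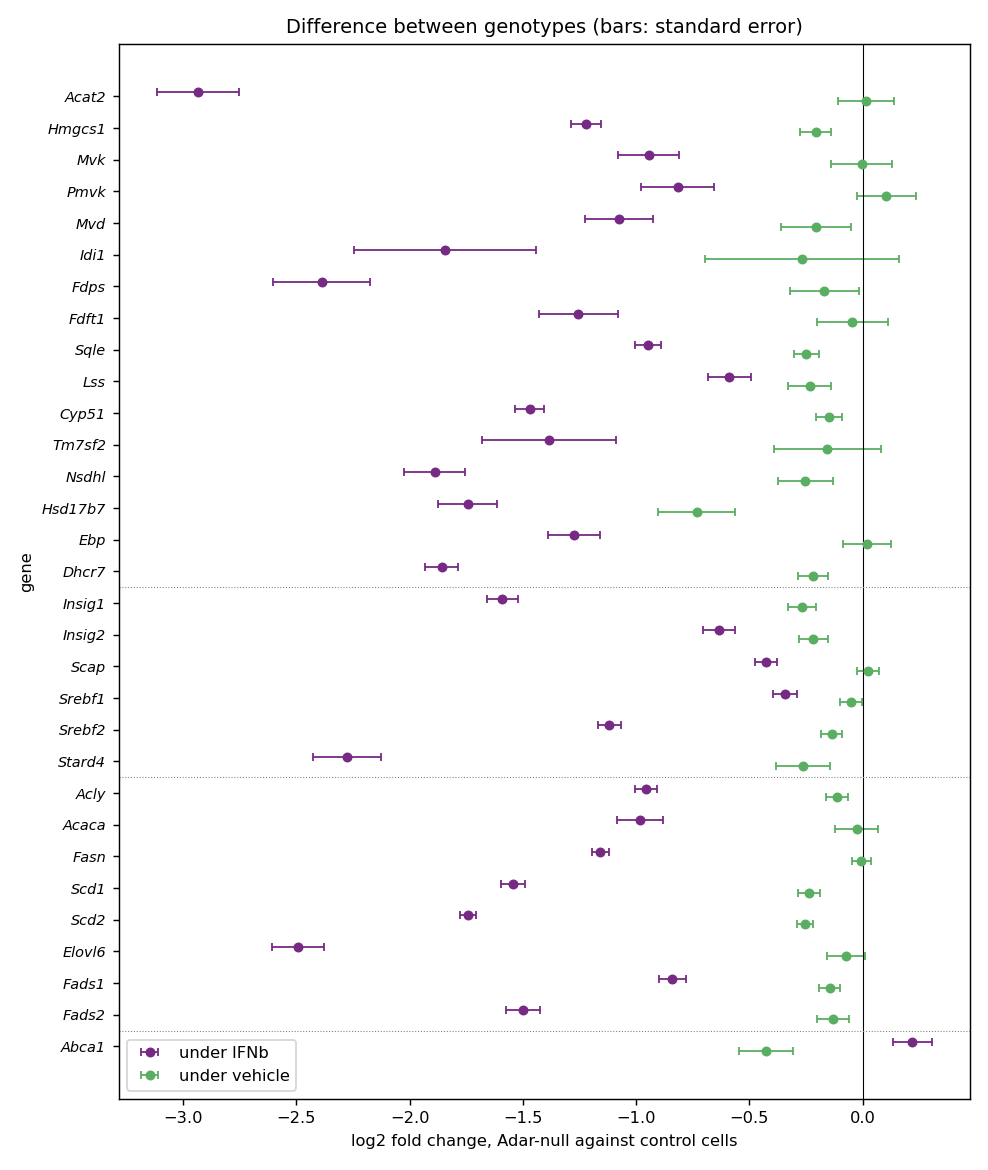
Log2 fold change of Adar-null against control cells for the 31 genes under IFNb (purple) and under vehicle (green), with bars for standard errors. Under IFNb all genes except Abca1 lie to the left of 0, and under vehicle Hsd17b7 lies farthest from 0.

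Other genes of these pathways were counted from 3 further lists. Of 21 genes of sterol synthesis, uptake and trafficking, 18 were tested, and in the interaction 12 were lower and 2 higher, shares of 66.7% and 11.1% beside 30.7% and 28.6% of all genes, with a median of -0.63. The 2 higher genes were Soat1 (0.43 ± 0.078) and Soat2, which esterify cholesterol, named here after their values were seen. Soat1 fell with IFNb in control cells (-0.27 ± 0.055) and rose in Adar-null cells (0.17 ± 0.055), there with overlapping libraries. Soat2 was called lower with IFNb in control cells and was not called in Adar-null cells (adjusted p = 0.113). No standard error could be computed for Soat2, so the size of its difference is uncertain and is not given. Lrp8, an apolipoprotein E receptor, had an interaction of -1.83 ± 0.21 (adjusted p = 3.12e-14).

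Of 39 further fatty acid genes 30 were tested, and in the interaction 11 were lower and 5 higher, with a median of -0.23. These shares were 36.7% and 16.7%, beside 30.7% and 28.6% of all genes, so the lower share was near that of all genes. The lower ones were led by Tecr (-1.22 ± 0.10) and Ptplb (-1.03 ± 0.21), enzymes of chain elongation, and Lpin2 (-1.09 ± 0.12), a phosphatidate phosphatase. The 5 higher genes, named after their values were seen, were Me1, Mid1ip1, Dgat2, Mcat and Oxsm. Of 17 genes of LXR signalling, efflux and sterol oxidation 11 were tested, and 4 were lower and 5 higher, with a median of 0.0029. These shares were 36.4% and 45.5%, beside the same 30.7% and 28.6% of all genes. Pltp, the phospholipid transfer protein, was higher (2.23 ± 0.35, adjusted p = 1.03e-08), with 10.8, 8.87 and 7.75 CPM in Adar-null IFNb libraries, 2.06, 1.79 and 3.39 in Adar-null vehicle, 5.52, 5.15 and 4.18 in control IFNb and 6.68, 7.26 and 4.15 in control vehicle libraries. Under vehicle it was lower in Adar-null than in control cells (-1.36 ± 0.28, adjusted p = 0.000199), and under IFNb higher (0.87 ± 0.21, adjusted p = 0.000111). Cyp39a1, an oxysterol hydroxylase, and Apoe, apolipoprotein E, were lower (-1.81 ± 0.13 and -1.38 ± 0.069). The other higher genes were Nr1h2, Mylip, Osbp and Osbpl5, and the other lower ones Abca2 and Abca7, also named after their values were seen.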

How the data were processed

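RNA of 12 B16 libraries was analysed. Ribosomal RNA was removed from total RNA, and the directional libraries were read in pairs of 37 bases, per the labels' protocols. The submitters' processing notes name Bowtie2 2.2.4 and HTSeq 0.6.1p1, besides DESeq2, Trimmomatic 0.33 and bcl2fastq 2.19.1, and the genome build mm10. Not given in the sources used here are the settings, the strand and the annotation. The deposited values are raw read counts per gene symbol, whole numbers that the authors did not normalise.

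From these counts, filterByExpr by group left 11561 genes, libraries were scaled by TMM, and the quasi-likelihood test of edgeR 4.0.16 (R 4.3.3, glmQLFit with robust estimation in its legacy form, glmQLFTest) was fitted to all 12 libraries with 1 term per group. The common biological coefficient of variation was 0.0397. A gene was called where its adjusted p (Benjamini-Hochberg, over all genes tested) was under 0.05, in 5 comparisons: IFNb against vehicle in each genotype, their difference (the interaction), and Adar-null against control under IFNb and under vehicle. Standard errors are Wald errors from the fitted variance, not below counting error. The fit was checked on simulated counts. Alternatives were DESeq2 1.42.0, limma-voom (limma 3.58.1), other scalings and filters, a replicate block, only the groups compared, and leaving out each library.

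The members and lists were chosen with earlier results of these data known. The 33 genes could all be named; of each further pathway list, the rule names the 3 genes with the largest interaction among those called with a mean of at least 5 CPM. From 1 of these 3 further lists 3 genes were deleted after its values had been seen, and were then restored to it. Some genes that the rule names are not reported here. The sterol element was searched in 4 letter patterns and the one shown was chosen after its matches were seen. Gene positions, exon lengths and 37-base stretches shared between genes come from GENCODE M21 (GRCm38, the same assembly as mm10), and promoter sequences from RefSeq GRCm38.p6. Libraries of a group differed by more than sampling noise (chi-square per degree of freedom 1.48 to 3.36), so all 12 were counted.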

Additional observations from a re-analysis of the deposited data

Results flagged for a closer look

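A difference between the genotypes in the response to IFNb was called for all 31 tested genes, by the interaction in the edgeR fit (response of Adar-null cells minus response of control cells, log2). The direction was seen in every enzyme of cholesterol synthesis: -2.95 for Acat2, -1.02 for Hmgcs1, -0.94 for Mvk, -0.92 for Pmvk, -0.87 for Mvd, -1.58 for Idi1, -2.22 for Fdps and -1.21 for Fdft1. For the later enzymes it was -0.70 for Sqle, -0.35 for Lss, -1.32 for Cyp51, -1.23 for Tm7sf2, -1.64 for Nsdhl, -1.01 for Hsd17b7, -1.29 for Ebp and -1.64 for Dhcr7. Among the genes of regulation and transport the value was -1.33 for Insig1, -0.42 for Insig2, -0.45 for Scap, -0.29 for Srebf1, -0.98 for Srebf2 and -2.02 for Stard4. For fatty acid enzymes it was -0.84 for Acly, -0.95 for Acaca, -1.15 for Fasn, -1.31 for Scd1, -1.49 for Scd2, -2.42 for Elovl6, -0.69 for Fads1 and -1.37 for Fads2. Abca1 alone had a positive value, 0.64. In this comparison 30.7% of all tested genes were called lower and 28.6% higher. The part of subclone, of ribosomal RNA share and of the lower melanocyte markers in these differences was not tested.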

How the results depend on the processing

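Over the 5 comparisons, 3367 values of the 31 genes were recomputed under the alternatives. Of these, 3251 kept their direction and side of the threshold, 71 lost their call, 13 gained one and 32 changed sign, and none of these 32 was called in the fit described. No scaling moved the median of all genes by over 0.1 on the log2 scale, the largest shift being -0.090 with library size alone in Adar-null cells.

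With library size alone and with upper-quartile scaling, 5 members were called lower with IFNb in control cells, beside 3. With DESeq2, 0 members were higher and 30 lower in Adar-null than in control cells under IFNb, and under vehicle 5 members were lower, with 109 of all genes higher and 215 lower, beside 285 and 468 with edgeR. Leaving out 1 library gave 1 to 2 members called higher with IFNb in Adar-null cells (1 without Adar-null vehicle replicate 1), and 0 to 1 higher in Adar-null cells under IFNb. Under vehicle it gave 5 to 10 members lower, 88 to 336 of all genes higher and 220 to 477 lower. The cause of these changes was not tested.

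In control cells, the log2 fold change of Tm7sf2 with IFNb was -0.069 with library size alone, -0.023 with upper-quartile scaling and -0.064 to 0.15 with 1 library left out, and that of Srebf2 was -0.059, -0.013 and -0.0025 to 0.032. Between genotypes under vehicle, Mvk was at 0.0035 with DESeq2, 0.0036 with upper-quartile scaling, 0.0030 with RLE size factors, 0.0025 without Rn45s and 0.0013 with at least 50 counts in 3 libraries. Fasn was at 0.0025, 0.0028, 0.0021, 0.0015 and 0.0005 under these settings. With 1 library left out, the vehicle values were -0.019 to 0.041 for Acat2, -0.075 to 0.051 for Mvk, -0.0092 to 0.27 for Pmvk, -0.42 to 0.10 for Idi1, -0.092 to 0.0399 for Fdft1, -0.0899 to 0.088 for Ebp, -0.082 to 0.058 for Acaca and -0.024 to 0.014 for Fasn.

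The replicate numbers shared by the groups showed no shared deviation: of 18 same-numbered pairs, none had a correlation of deviations over 0.1 (range -0.071 to 0.060). Differently numbered libraries reached 0.083, so the check cannot exclude that the replicate numbers mark pairs. With the number as a replicate block, 25 members fell and 2 rose in Adar-null cells and 23 rose and 3 fell in control cells, and 9 were lower in Adar-null cells under vehicle, Fads1 no longer being called (adjusted p = 0.0564). Genes with few counts limit the depth: Idi1 and Tm7sf2 did not pass the filter of at least 50 counts in 3 libraries, under which 28 members were lower in the interaction and in Adar-null cells under IFNb.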
